A study of Mus musculus with 19 samples.

Results

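The myogenic transcription factors are the 8 genes Pax3, Pax7, Six4, Myf5, Myod1, Myog, Myf6 and Mef2c, followed here array by array after loss of MED1, part of Mediator, the complex through which DNA-bound transcription factors reach RNA polymerase II. They were picked by symbol, with no threshold on their values, from the 22180 genes that the arrays measured, at a time when earlier results of these data were known. All 8 had a row in the deposited table, and Mef2c had a second one, which is given as a check.

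RNA was measured on 19 Affymetrix mouse arrays, and values are log2 signals after RMA, a method that corrects background and summarises the probes of a transcript. The central comparison is interscapular brown fat at E17.5 of gestation, with 4 arrays of Myf5CreMed1f/f embryos (both Med1 alleles floxed) and 3 arrays of Myf5CreMed1f/w embryos (1 floxed and 1 wild-type allele). Beside it stand adult interscapular brown fat at 10 weeks, with 2 arrays of AdipoqCreMed1f/f mice and 2 arrays of Med1f/f mice without Cre, and 3T3-L1 cells, a mouse fibroblast line that can become fat cells, with 4 arrays of MED1 knockout cells and 4 arrays of the wild-type parent. Both embryonic groups carried Myf5-Cre, which cuts floxed DNA in cells that have expressed Myf5 and in their descendants, among them skeletal muscle and much of the brown fat between the shoulder blades. The embryonic control cells can therefore lose 1 Med1 copy, and no embryonic group lacks Cre. Every adult array came from floxed mice, and Adipoq-Cre acts in fat cells. The knockout 3T3-L1 arrays hold RNA pooled from CRISPR/Cas9 clones, at day 0 and day 2 of differentiation.

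Skeletal muscle is built in steps by these factors. The paired-box proteins PAX3 and PAX7 mark muscle precursors and satellite cells, and SIX4 works with EYA cofactors upstream of the muscle program. MYF5 and MYOD1, of the basic helix-loop-helix class, commit cells to the muscle fate, myogenin (Myog) and MYF6 (also called MRF4) act as muscle cells fuse and mature, and MEF2C strengthens transcription of muscle genes together with them. Brown fat shares a precursor with muscle that has expressed Myf5, and PRDM16 is known to hold brown fat precursors away from the muscle fate.

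MYF5, MYOD1, MYOG and MYF6 bind E-boxes (CANNTG) as dimers with E proteins, while SIX4 and its relatives bind the MEF3 element (TCAGGTT). Promoter windows of 300 bases, from 250 before to 50 after the start of transcription, were read from RefSeq (GRCm38.p6) for 5 of the 8 members and for genes of the acetylcholine receptor. Pax3, Myod1, Myf6 and Chrnd had no entry. The window of Myog is shown because Myog was among the members whose arrays separated by genotype, and that of Chrng, the fetal gamma subunit of the muscle acetylcholine receptor, because it holds 3 E-boxes and its transcript is described with the members below. Capitals mark matches to the E-box or MEF3 letters on either strand.
Myog (chr1:134289754-134290053, + strand): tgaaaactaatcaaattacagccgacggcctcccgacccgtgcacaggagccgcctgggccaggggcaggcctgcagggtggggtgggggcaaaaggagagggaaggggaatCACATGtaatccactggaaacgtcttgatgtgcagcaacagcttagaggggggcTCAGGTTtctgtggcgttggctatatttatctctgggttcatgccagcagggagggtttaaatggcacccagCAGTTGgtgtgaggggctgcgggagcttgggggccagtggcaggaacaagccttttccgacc
Chrng (chr1:87205561-87205860, + strand): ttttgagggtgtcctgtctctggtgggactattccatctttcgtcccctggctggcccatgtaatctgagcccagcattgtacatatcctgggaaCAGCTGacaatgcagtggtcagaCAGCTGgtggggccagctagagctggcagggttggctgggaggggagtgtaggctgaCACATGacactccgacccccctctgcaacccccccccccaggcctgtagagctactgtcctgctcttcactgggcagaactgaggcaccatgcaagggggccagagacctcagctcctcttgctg
In the Myog window the E-boxes begin at -138 and -12 relative to the start, and the MEF3 element spans -84 to -78. The MEF2 consensus, searched as YTAWWWWTAR (Y for C or T, W for A or T, R for A or G), had no full match in it. The stretch ctatatttat of this window departs from these letters only at its last base. A search for full matches therefore does not show that MEF2 sites are absent. In the Chrng window the E-boxes begin at -155, -132 and -75. The 3 motifs do not overlap each other in either window. The windows of Chrna1, Chrnb1 and Musk, also genes of the neuromuscular junction, held 3 E-boxes each, as did that of Chrng. E-boxes are common, present in 72.3% of all 32851 RefSeq windows of this length, and 39.6% of them hold at least as many as the 2 of Myog. The MEF3 letters were present in 4.07% and the MEF2 consensus in 3.19%. None of the 3 motifs was found in the windows of Myf5 and Pax7, MEF3 was found in 1 window of Six4, and 1 window of Mef2c held E-boxes and MEF3. These are matches of letters and say nothing of binding in these tissues.

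Before the members, the libraries call for some remarks. The Med1 probes read 7.0, 7.10, 7.10 and 6.88 in Myf5CreMed1f/f brown fat and 6.94, 7.33 and 7.82 in Myf5CreMed1f/w brown fat, so control replicate 1 lay within the knockout range, and the difference of -0.35 ± 0.19 (SE) did not pass the test (adjusted p = 0.369). It was -0.12 ± 0.13 without control replicate 3 and -0.56 ± 0.15 without control replicate 1 (adjusted p = 0.707 and 0.0998). The probes may lie outside the deleted part, which the files do not show. In adult brown fat Med1 read 5.28 and 5.13 with AdipoqCreMed1f/f and 5.99 and 6.90 with Med1f/f (adjusted p = 0.19), and in 3T3-L1 cells it lay 1.31 log2 units lower in the knockout (-1.31 ± 0.08, limma adjusted p = 0.00108). Control replicate 3 of the embryo was the lowest control in 35 of 38 genes of skeletal muscle contraction, the lowest of all 7 arrays in 31, and carried the highest Med1. The tissue label was borne out by Ucp1, the uncoupling protein that makes heat, at 7.23 to 8.34 in the embryonic knockout and 10.07 to 11.59 in its control, where array medians lay between 3.49 and 3.57. Muscle transcripts were on the same embryonic arrays, with Acta1, skeletal muscle actin, at 10.04 to 10.70 in the knockout and 8.09 to 9.73 in the control. All members but Pax3 exceeded the median over all 41345 rows of their own array, many without a gene symbol, on every embryonic array. By mean level over these arrays, Pax3, Myf5 and Six4 did not exceed the median of the 22180 genes. The 3 experiments differ in their array medians and were tested apart.

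In embryonic brown fat, Myf6, Myog and Mef2c read higher on every knockout array than on any control array. None of the 8 members passed the test across all genes, in either direction. Of all 22180 genes, 1.16% were called at an adjusted p under 0.05, with 0.658% called higher and 0.5% called lower in the knockout. The 3 members whose groups did not overlap stand beside 8.56% of all genes with every knockout array above every control array, and no member was among the 6.83% with every knockout array below. The median log2 fold change was 0.14 over the 8 members and -0.01 over all genes. In tissue RNA, fewer cells of a type and less RNA per cell cannot be told apart.

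**Figure D1:**
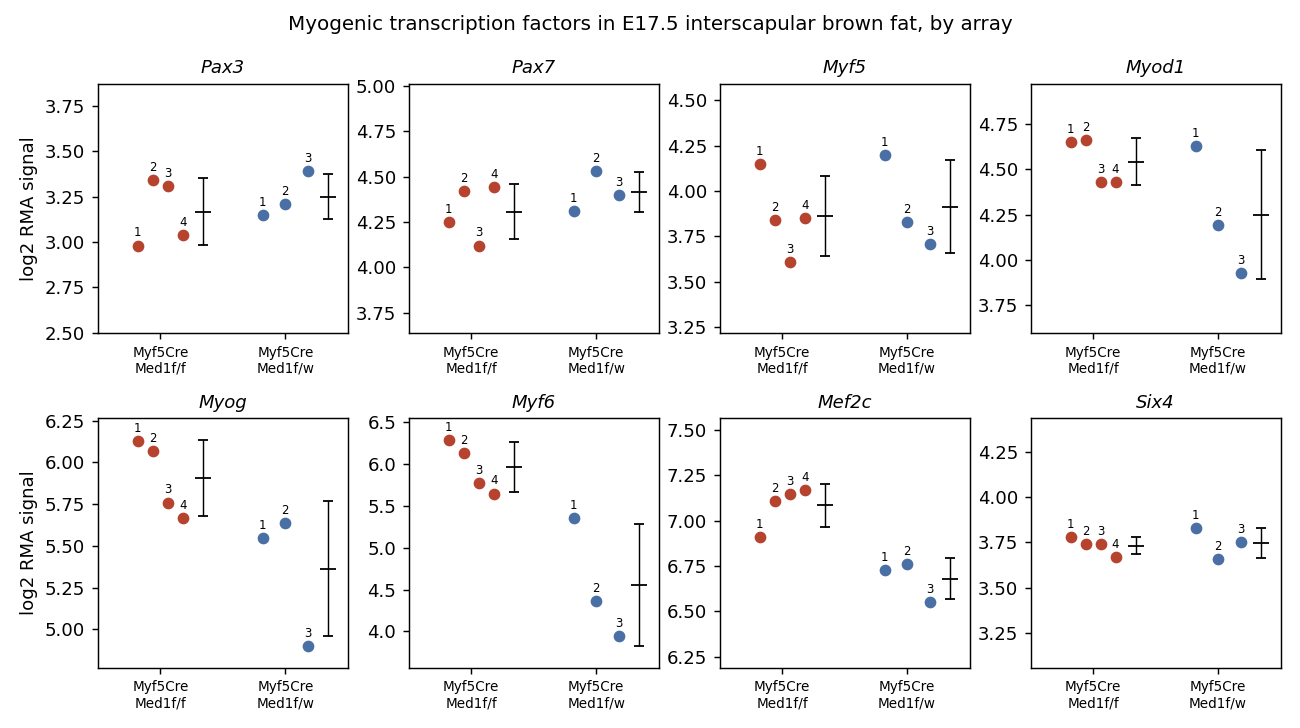
Log2 RMA signal (vertical axis, a scale of its own in each panel) of the 8 myogenic factors on each array of Myf5CreMed1f/f (red, left) and Myf5CreMed1f/w (blue, right) brown fat at E17.5, with replicate numbers and the mean ± SD beside the points (n = 4 and n = 3). The groups separate for Myog, Myf6 and Mef2c, and control replicate 3 is the lowest array for Myod1, Myog, Myf6 and Mef2c.

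The upstream factors showed small differences. Pax3 (transcript cluster 17224684), needed for the migration of limb muscle precursors, read 2.98, 3.34, 3.31 and 3.04 in the knockout and 3.15, 3.21 and 3.39 in the control. Pax7 (17431910), the factor of satellite cells, read 4.25, 4.42, 4.12 and 4.44 in the knockout and 4.31, 4.53 and 4.40 in the control. For both genes the knockout arrays spanned most of the control range and reached below it. The log2 fold change was -0.08 ± 0.11 for Pax3 (95% interval -0.35 to 0.18, adjusted p = 0.716) and -0.10 ± 0.10 for Pax7 (-0.33 to 0.12, adjusted p = 0.593). Six4 (17281885) was the steadiest member, with 3.78, 3.74, 3.74 and 3.67 in the knockout and 3.83, 3.66 and 3.75 in the control. Its fold change of -0.02 ± 0.06 had a 95% interval of -0.16 to 0.12, and its 7 arrays spanned 0.17 log2 units in all. All Six4 values lay close to the embryonic array medians of 3.49 to 3.57.

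Of the determination factors, Myf5 overlapped fully between the genotypes and Myod1 in part. Myf5 (17244726), the gene that gives Myf5-Cre its name, read 4.15, 3.84, 3.61 and 3.85 in the knockout and 4.20, 3.83 and 3.71 in the control, a log2 fold change of -0.05 ± 0.16 (95% interval -0.42 to 0.32, adjusted p = 0.884). The labels do not say whether the Cre allele replaces a copy of Myf5. Myod1 (17478175), able to turn other cell types into muscle, read 4.65, 4.66, 4.43 and 4.43 in the knockout and 4.63, 4.19 and 3.93 in the control. Control replicate 1 lay just below the 2 highest knockout arrays, and the other 2 controls lay below all of them. The log2 fold change of Myod1 was 0.29 ± 0.16 (95% interval -0.09 to 0.68, adjusted p = 0.373), and it was 0.48 ± 0.11 without control replicate 1 (adjusted p = 0.0806) and 0.13 ± 0.14 without control replicate 3 (adjusted p = 0.713).

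The differentiation factors carried the largest differences among the members. Myf6 (17244732) read 6.29, 6.14, 5.78 and 5.65 in the knockout and 5.36, 4.36 and 3.94 in the control. The lowest knockout array lay 0.29 log2 units above the highest control, and the control arrays themselves differed by 1.42 units. The means were 5.97 ± 0.30 in the knockout (SD, n = 4) and 4.55 ± 0.73 in the control (SD, n = 3), a log2 fold change of 1.41 ± 0.33, or 2.66-fold with a 95% interval of 1.55 to 4.57. Myf6 stood at rank 995 of all genes by limma's p of 0.00359 and had an adjusted p of 0.08. It lies beside Myf5 on chromosome 10 of GRCm38.p6, so these neighbouring genes had unlike values in the same arrays. Without control replicate 3 the log2 fold change of Myf6 was 1.11 ± 0.32 (adjusted p = 0.232), and without control replicate 1 it was 1.81 ± 0.22 (adjusted p = 0.0506).

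Myog (17217428), whose loss in mice stops muscle fibres from forming, read 6.13, 6.07, 5.76 and 5.67 in the knockout and 5.55, 5.64 and 4.90 in the control. Knockout replicate 4 and control replicate 2 nearly met, and control replicate 3 lay far below the others. The log2 fold change was 0.54 ± 0.20, or 1.46-fold, with a 95% interval of 0.07 to 1.02 on the log2 scale (adjusted p = 0.199). It was 0.31 ± 0.15 without control replicate 3 (adjusted p = 0.432), and 0.63 ± 0.24 without control replicate 1 (adjusted p = 0.209).

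Mef2c (17288917), which is also active in heart, endothelial and neural cells, read 6.91, 7.11, 7.15 and 7.17 in the knockout and 6.73, 6.76 and 6.55 in the control. The spread within each group was small beside that of Myf6, and control replicate 3 was again the lowest array. The log2 fold change was 0.40 ± 0.09, or 1.32-fold, with a 95% interval of 0.20 to 0.61 (adjusted p = 0.0696). The other row that carries the Mef2c symbol (17294682) read 5.28, 5.10, 5.20 and 5.72 in the knockout and 5.20, 5.20 and 4.68 in the control, where the groups overlapped (0.30 ± 0.19, adjusted p = 0.427). Without control replicate 3 the first row gave 0.34 ± 0.09 (adjusted p = 0.199). The 4 endothelial markers had a median fold change of -0.10.

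**Figure D2:**
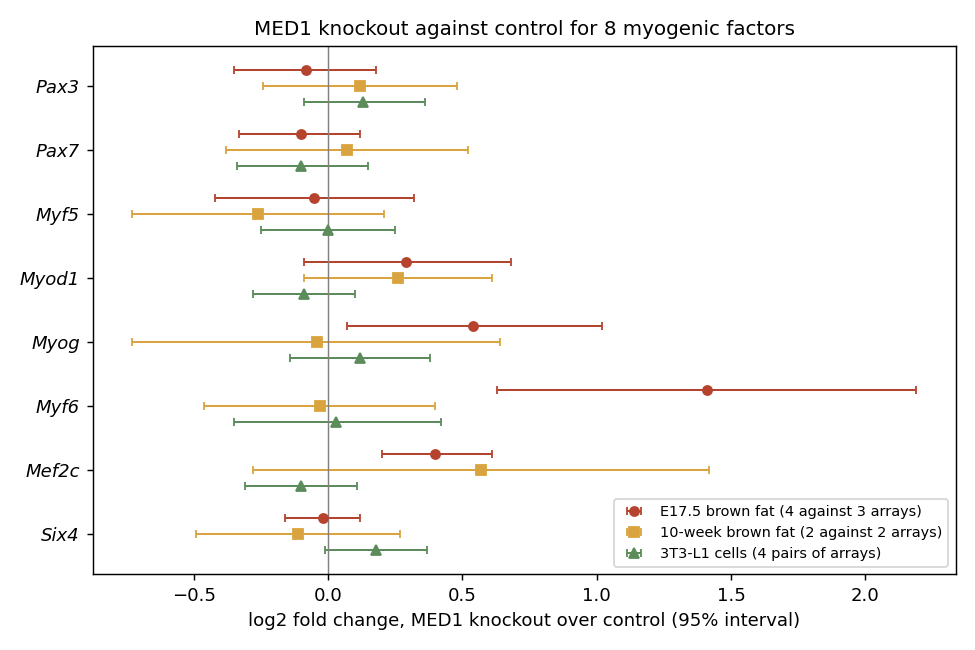
Log2 fold change of each myogenic factor, MED1 knockout over control, with 95% intervals (horizontal axis), in E17.5 brown fat (circles), 10-week brown fat (squares) and 3T3-L1 cells (triangles). The embryonic intervals of Myog, Myf6 and Mef2c lie above 0, with Myf6 at 1.41, and no member passed an adjusted p of 0.05 in any of the 3 experiments.

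The genes that the factors act with and on were taken as fixed lists. No gene was called in the 14 E proteins and helix-loop-helix inhibitors (median 0.06), the 13 relatives and cofactors of SIX4 with other homeobox genes (median -0.01) or the 12 MEF2 partners and class IIa histone deacetylases (median 0.11). Every knockout array lay above every control in 1, 1 and 2 genes of these lists in turn, beside 8.56% of all genes. None of their genes had every knockout array below, beside 6.83% of all genes. Among the genes that lay above was Tcf12, an E protein that pairs with the myogenic factors. Tcf12 read 7.58, 7.67, 7.74 and 7.76 in the knockout and 7.41, 7.35 and 7.41 in the control (0.30 ± 0.06, adjusted p = 0.0656). The inhibitor Id2 had a value of -0.37 ± 0.20 (adjusted p = 0.354). Eya4, a cofactor of SIX4 and its relatives, read 4.79, 4.55, 4.95 and 4.71 in the knockout and 4.06, 4.05 and 4.42 in the control (0.57 ± 0.12, adjusted p = 0.0724). Mamstr, a coactivator of MEF2C, read 5.96, 5.53, 5.91 and 5.44 in the knockout and 5.19, 5.20 and 4.76 in the control (0.66 ± 0.17, adjusted p = 0.097).

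Among 10 genes of myoblast fusion and the neuromuscular junction, the median was 0.27 and none was called, with 8 fold changes above 0. Every knockout array lay above every control in 3 of the 10, beside 8.56% of all genes. In 1 every knockout array lay below, beside 6.83% of all genes. That gene was Chrne, another receptor subunit, picked out after its values were seen (-0.12 ± 0.06, adjusted p = 0.311). Mymk, the membrane protein myomaker that fuses myoblasts, read 7.52, 7.68, 7.07 and 6.81 in the knockout and 6.72, 6.27 and 4.92 in the control (1.30 ± 0.43, adjusted p = 0.161). Chrng, whose promoter is printed above, read 4.90, 4.85, 4.80 and 4.25 in the knockout and 4.23, 4.27 and 3.82 in the control, so knockout replicate 4 lay among the controls (0.60 ± 0.19, adjusted p = 0.145). Chrnd, the delta subunit of the same receptor, had groups that did not overlap (0.47 ± 0.12, adjusted p = 0.0968). Control replicate 3 was the lowest array for Mymk, Chrng and Chrnd.

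The 11 surface proteins of satellite cells and myoblasts had a median of 0.08 and no call. Vcam1, an adhesion molecule also made by endothelium and stroma, read 7.57, 7.43, 7.26 and 8.0 in the knockout and 6.60, 6.57 and 6.05 in the control (1.16 ± 0.21, adjusted p = 0.0544). Met, the receptor that guides migrating muscle precursors, had the lowest value of the list (-0.52 ± 0.18, adjusted p = 0.172).

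Contraction genes showed the same separation more widely, again with no gene past the threshold. Of 38 genes, 35 had a positive log2 fold change, 31 had an unadjusted limma p under 0.05, 30 had every knockout array above every control and 1 had every knockout array below, against the 8.56% and 6.83% of all genes given above. Over all 22180 genes, 46.3% had a positive fold change and 4447 had an unadjusted p under 0.05. The list's median was 1.0. Myh3, the embryonic myosin heavy chain, read 8.96, 8.79, 9.23 and 9.28 in the knockout and 7.73, 8.37 and 6.41 in the control (1.56 ± 0.42, adjusted p = 0.106). Ckm, muscle creatine kinase, had a fold change of 1.20 ± 0.35 (adjusted p = 0.122) and Acta1 one of 1.29 ± 0.38 (adjusted p = 0.13). Pygm, muscle glycogen phosphorylase, had the lowest p of the list (1.64 ± 0.36, adjusted p = 0.073). The 3 negative fold changes were those of Tcap (-0.05), Myh1 (-0.18) and Mb, the oxygen store myoglobin, whose arrays were the ones that all lay below the controls, at 4.40, 4.02, 4.50 and 4.41 in the knockout and 5.02, 4.74 and 4.71 in the control (-0.49 ± 0.13, adjusted p = 0.109). These 3 genes were singled out after their values were seen. The mean level of the 38 genes was 7.02, 6.86, 6.83 and 6.79 in the knockout and 6.30, 6.37 and 5.41 in the control. Without control replicate 3 the list's median was 0.59, with Myh3 at 1.02 ± 0.22, Acta1 at 0.79 ± 0.19 and Ckm at 0.77 ± 0.21. Without control replicate 1 the list's median was 1.20.

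**Figure D3:**
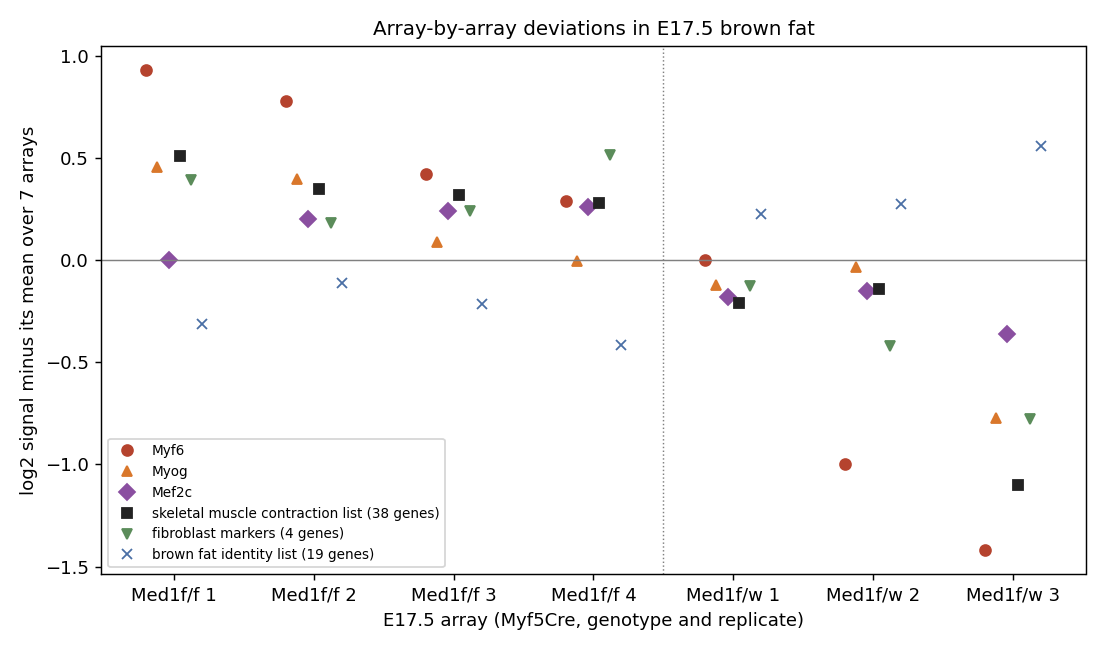
Log2 signal of Myf6, Myog and Mef2c, and the mean of 3 gene lists, on each E17.5 array, as the difference from the mean over the 7 arrays (vertical axis), with the 4 Myf5CreMed1f/f arrays left of the 3 Myf5CreMed1f/w arrays. The muscle factors, the contraction list and the fibroblast markers lie at about 0 or above it in the knockout and at about 0 or below it in the control, the brown fat list lies on the opposite side, and control replicate 3 is the farthest from 0 among the controls for all 6.

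Markers of other cells moved with the same arrays. The 19 brown fat genes had a mean level of 7.56, 7.76, 7.66 and 7.46 in the knockout and 8.10, 8.15 and 8.43 in the control, and 2 of them fell, Ucp1 (-3.14 ± 0.40, adjusted p = 0.0439) and Dio2, the deiodinase that activates thyroid hormone (-1.66 ± 0.17, adjusted p = 0.036). Fold changes were negative for 15 of the 19 and positive for 4, among them the transcription factors Zic1 and Lhx8, at 0.42 ± 0.13 and 0.39 ± 0.14 (adjusted p = 0.136 and 0.194), which were picked out after their values were seen. Prdm16 and Ebf2, regulators of brown fat identity, had fold changes of -0.11 ± 0.19 and -0.05 ± 0.09 (adjusted p = 0.797 and 0.789), and Pparg, the main fat cell regulator, one of -0.31 ± 0.08 (adjusted p = 0.106). The 4 fibroblast markers had a mean level of 9.69, 9.48, 9.54 and 9.81 in the knockout and 9.17, 8.88 and 8.52 in the control, and Col1a1, a collagen, rose by 0.60 ± 0.09 (adjusted p = 0.0459). Of the 4 smooth muscle markers, with mean levels of 6.56 to 6.74 in the knockout and 6.02 to 6.40 in the control, Cnn1 and Acta2 rose by 0.77 ± 0.10 and 0.76 ± 0.13 (adjusted p = 0.0459 and 0.0478). Myh11 and Tagln were not called, and their groups overlapped. Their means were 5.96 and 5.64 in the knockout and 5.86 and 5.39 in the control. The 4 heart muscle markers, at 3.46 to 3.53 in the knockout and 3.50 to 3.56 in the control, lay near the array medians and had a median fold change of -0.03. The 4 cartilage markers had a median of 0.02, with Sox9 the highest (1.19 ± 0.28, adjusted p = 0.0832), and the 4 macrophage markers one of 0.32. The part of these cells, and of the share of muscle in each piece of tissue, in the values of the myogenic factors was not tested. Called genes of these lists lost their call when any 1 array was left out, since no gene was then called.

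**Figure D4:**
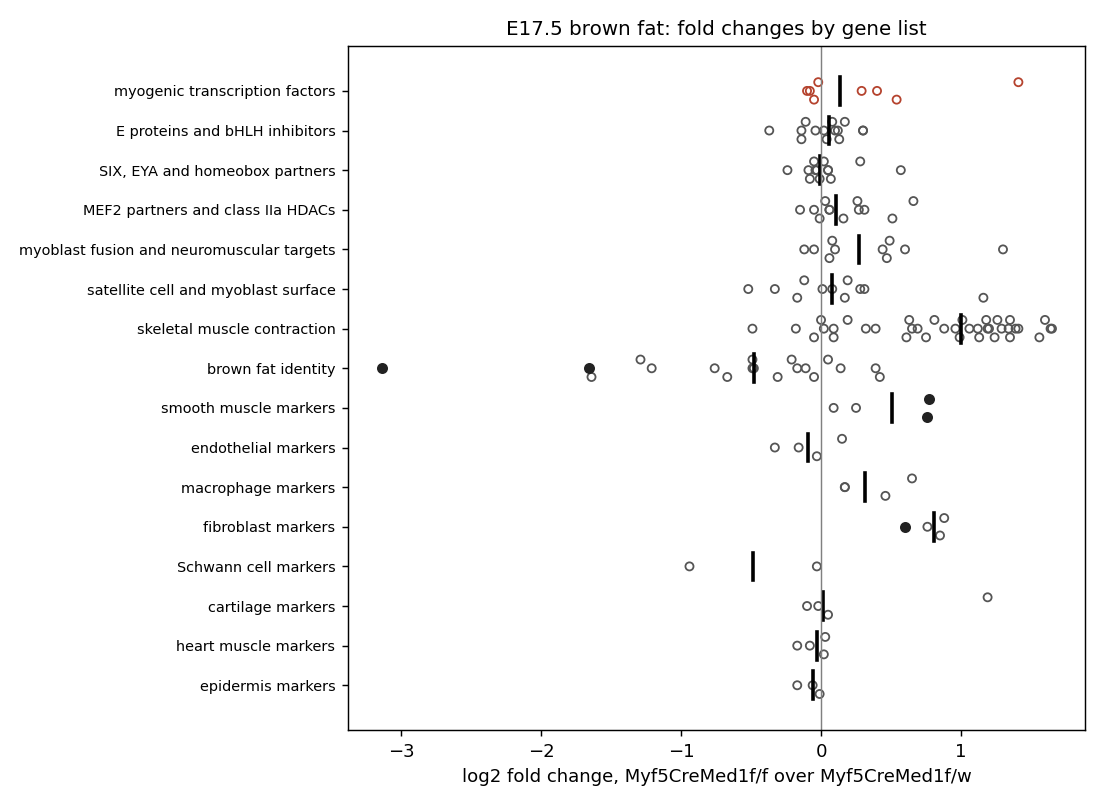
Log2 fold change of each measured gene in E17.5 brown fat, Myf5CreMed1f/f over Myf5CreMed1f/w (horizontal axis), by gene list, with the median as a bar, filled points for genes past an adjusted p of 0.05 and the myogenic factors in red. The contraction list has its median at 1.0 with no filled point, and the filled points are Ucp1, Dio2, Cnn1, Acta2 and Col1a1.

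Across the 7 embryonic arrays only Myog and Myf6 spanned 1 log2 unit or more, at 1.22 and 2.34. As a description over these 7 arrays, which include the difference between genotypes, the genes whose pattern was most like that of Myog, among 1494 with such a span, were Trim72 (Pearson r 0.994), Cobl (0.989), Tnni1 (0.989), Apobec2 (0.988) and Tnni2 (0.985). Tnni1 and Tnni2 encode the slow and fast troponin I of skeletal muscle, and Trim72 a membrane repair protein of muscle. The genes most like Myf6 were Tpsb2 (0.998), Slc7a5 (0.992), Hdc (0.989), Srpx2 (0.987) and Atp2a1 (0.986). Atp2a1 is the calcium pump of fast muscle, whereas Tpsb2 and Hdc, a tryptase and the enzyme that makes histamine, are known from mast cells. In Tpsb2 the lowest knockout array read 9.24 and the highest control 9.07. No list of mast cell genes was among those examined.

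In adult brown fat, where Cre acts in fat cells, no myogenic factor passed the test either, beside 0.0271% of all genes called (6 genes; 3013 had an unadjusted p under 0.05). The median log2 fold change over the 8 members was 0.02, against 0.00 over all genes. Myf6 read 2.53 and 2.21 in the AdipoqCreMed1f/f mice and 2.32 and 2.48 in the Med1f/f mice, below the adult array medians of 2.87 to 2.89. Myog read 3.48 and 3.08 in the knockout and 3.00 and 3.65 in the control. For both genes the arrays of the groups interleaved, with fold changes of -0.03 ± 0.17 and -0.04 ± 0.27 (adjusted p = 0.978 and 0.979).

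Mef2c read 5.23 and 4.67 in the adult knockout and 4.79 and 3.96 in the adult control, which overlapped, and its fold change of 0.57 ± 0.33 had a 95% interval of -0.28 to 1.42 (adjusted p = 0.565). It was 0.16 without control replicate 2 and 0.99 without control replicate 1, and the other Mef2c row gave 0.14 ± 0.13 (adjusted p = 0.762). Myod1 read 3.61 and 3.67 in the knockout and 3.31 and 3.46 in the control, and Pax3 read 2.74 and 2.54 in the knockout and 2.52 on both control arrays. These were the 2 members with both knockout arrays above both controls, as were 21.8% of all genes (0.26 ± 0.14 and 0.12 ± 0.14, adjusted p = 0.517 and 0.826). Myf5 read 2.57 and 2.41 in the knockout and 2.95 and 2.55 in the control (-0.26 ± 0.18, adjusted p = 0.645). Pax7 and Six4 had fold changes of 0.07 ± 0.18 and -0.11 ± 0.15 (adjusted p = 0.94 and 0.858). With 2 arrays a group, intervals were wide, up to 1.70 log2 units for Mef2c.

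**Figure D5:**
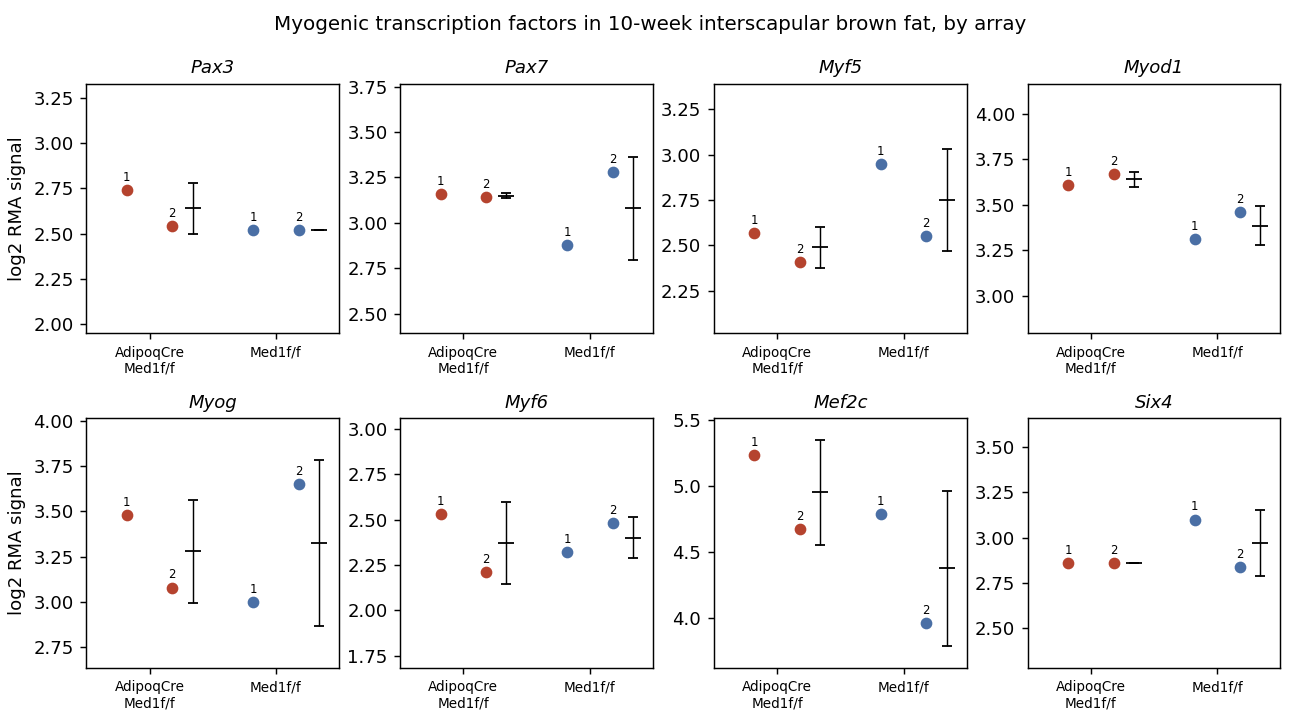
Log2 RMA signal (vertical axis, a scale of its own in each panel) of the 8 myogenic factors on each array of AdipoqCreMed1f/f (red, left) and Med1f/f (blue, right) brown fat at 10 weeks, with replicate numbers and the mean ± SD (n = 2 each). Arrays overlap between the genotypes for Pax7, Myf5, Myog, Myf6, Mef2c and Six4, with Myf6 between 2.21 and 2.53.

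The muscle lists of adult brown fat had medians of the opposite sign to those of the embryo. The contraction list had a median of -0.13 with no call, at mean levels of 3.11 and 3.49 in the knockout and 3.16 and 3.85 in the control. The fusion and neuromuscular list had a median of -0.11, at mean levels of 2.56 to 2.80, below the adult array medians of 2.87 to 2.89. The surface list had a median of -0.04. Fibroblast markers had a median of 1.15 and macrophage markers one of 1.43, also with no call; in the embryo these medians were 0.81 and 0.32.

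The difference between the knockout effects, embryonic minus adult, was tested in a fit of all 11 brown fat arrays, where 1.99% of all genes were called. None of the 8 members passed. Myf6 had the largest difference among them, 1.44 ± 0.47 log2 units with a 95% interval of 0.41 to 2.48 (adjusted p = 0.155). That of Myog was 0.59 ± 0.35 (adjusted p = 0.47), that of Mef2c -0.17 ± 0.31 (adjusted p = 0.85), and the adjusted p-values of the other members ran from 0.652 to 0.966. Age, Cre driver and the control genotype all differ between these experiments and cannot be told apart. In the contraction list the median difference was 1.09, and 1 of 38 genes was called, Des, the muscle intermediate filament desmin (2.05 ± 0.25, adjusted p = 0.00497). Des read 8.47, 8.31, 7.93 and 7.82 in the embryonic knockout and 7.56, 7.63 and 7.32 in the embryonic control. In the adult it read 5.82 and 5.76 in the knockout and 7.13 and 7.30 in the control. Met was the called gene of the surface list (1.37 ± 0.29, adjusted p = 0.0416), with 5.03 and 5.40 in the adult knockout and 6.96 and 7.25 in the adult control. Calls were not confined to the muscle lists. Of 4 macrophage markers 2 had a negative difference that was called (list median -1.14), and of 19 brown fat genes 1 had a positive one.

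In 3T3-L1 cells none of the 8 members passed, beside 0.289% of all genes called. Six4 read 7.25, 7.36, 7.12 and 7.14 in the knockout (day 0 replicates 1 and 2, then day 2) and 7.15, 7.24, 6.78 and 6.99 in the wild type (0.18 ± 0.08, 95% interval -0.01 to 0.37, adjusted p = 0.419). Myf6, the member with the largest embryonic difference, read 3.65, 4.03, 4.07 and 3.66 in the knockout and 3.65, 3.96, 3.44 and 4.23 in the wild type (0.03 ± 0.17, adjusted p = 0.959). These values, like those of Mef2c in the cells, all lay below the cell array medians of 4.69 to 4.79. The other members had fold changes between -0.10 and 0.13, with adjusted p-values from 0.623 to 0.999. The day in the title and in the source label disagreed for 4 of the 8 cell arrays, which leaves the genotype pairs of the fit as they are.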

How the data were processed

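RNA for the 19 arrays (8 of cells, 7 of embryonic and 4 of adult tissue) was extracted with Trizol and prepared with a whole-transcript kit, per the labels' protocols. The authors deposited 1 table of log2 values, made with RMA and Transcriptome Analysis Console per the submitters' processing notes; no version is stated, and the build is not given in the sources used here. RMA brings the arrays of a run to 1 distribution, and the array medians differ between the experiments, so tests were made within each. Rows with 1 gene symbol in the platform annotation were kept, and for several rows of a gene the row with the highest mean over the 19 arrays, leaving 22180 genes with no filter on dim ones.

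Groups came from the sample titles. A linear model was fitted on all genes with limma 3.58.1 under R 4.3.3 (moderated by eBayes, two-sided); p-values were adjusted by Benjamini and Hochberg over all of them, with a threshold of 0.05. The embryonic and adult arrays had a fit each, the difference of effects a fit of all 11, and the cells a fit with 4 genotype pairs as a block, because these pairs are the same under both of their conflicting day labels. Deviations of same-numbered arrays correlated at 0.30 to 0.35 in the cells, at 0.31, -0.02 and 0.11 in the embryo and at 0.33 in the adult. In groups of 2 arrays, as in the adult and on each day of the cells, both pairs give the same value by construction. The embryonic pairs are few, so these correlations do not tell whether the numbers pair the arrays. The brown fat fits had no block. Values after ± are standard errors unless SD is written. Nothing in the labels says that replicates came from separate animals or cultures, so p-values measure the spread between arrays, which may be technical, and the number of arrays limits the precision.

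The members and 15 gene lists were chosen with earlier results of these data known. Of the 153 list genes 146 were measured. Named are all members, Med1, 7 set brown fat and muscle genes, and the 5 genes most like a member. From each list, genes past the threshold in the embryo or the adult are named. Of the up to 4 genes of a list with the lowest p, some are named and others are not. Chrne, Mb, Myh1, Tcap, Zic1, Lhx8, Des and Met are named also where they fall outside these choices. Alternatives were a filter at the median level, renewed quantile normalization, trend and robust fitting, another choice of row, array weights, 1 fit of all 19 arrays, a replicate block, and leaving out each array; using the other Mef2c row was added after the data were seen. The fit was tested on simulated data.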

Additional observations from a re-analysis of the deposited data

How the results depend on the processing

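The directions of Myog, Myf6, Mef2c and Myod1 in embryonic brown fat held under every alternative run and without each array. For Myog, Myf6 and Mef2c, whose groups did not overlap, leaving out 1 array could not have turned the direction. The filter, trend and robust fitting and 1 fit of all 19 arrays keep the difference of group means for every gene they test. Calls did not hold. Myf6 passed the threshold with only genes above the median level (1.41, adjusted p = 0.0332). It also passed in 1 fit of all 19 arrays (1.41, adjusted p = 0.00513). Mef2c passed with genes above the median level (0.40, adjusted p = 0.0367). The filter tests fewer genes and also renews the eBayes moderation, which draws on all genes tested. The fit of all arrays uses a spread shared with the other experiments. What part each of these changes had in the calls was not tested. Over the other alternatives the adjusted p of Myf6 reached 0.106, and without single arrays it ran from 0.0506 to 0.232. Pax3, Myf5 and Six4 have no value under the filter in the embryo.

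The 257 genes called in the embryo became 1296 above the median level, 146 with array weights, 1527 in 1 fit of all arrays, and 0 without any 1 of the 7 arrays. With the replicate block, 0 embryonic and 139 adult genes were called. Whether the replicate numbers pair the arrays could not be settled in the embryo or in the adult, from so few pairs. The 6 adult calls became 107 above the median level, 64 with quantile normalization, 78 with trend and robust fitting, 2049 in 1 fit of all arrays and 0 without any 1 array. The 441 calls of the difference became 128 with array weights, 773 in 1 fit of all arrays and 206 to 524 without 1 array; Myf6 passed in 1 of these 11 (adjusted p = 0.0232). In cells the 64 calls became 198 above the median level, 245 with trend and robust fitting, 177 in 1 fit of all arrays that also drops the pair block, 79 with no block and the days of the titles, 9 with no block and the days of the source label, and 20 to 32 without 1 pair. The cause was not tested.

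Values near 0 changed sign. In the embryo Six4 was 0.00 with quantile normalization, with weights and with the block, and Ebf2 was 0.02 with quantile normalization. The difference for Myod1 was -0.05 with quantile normalization, and Myf5 in cells was -0.01 with weights. Leaving out arrays gave, in the embryo, -0.15 to 0.09 for Myf5, -0.06 to 0.02 for Six4, -0.33 to 0.04 for Prdm16 and -0.14 to 0.04 for Ebf2. In the adult it gave -0.13 to 0.27 for Pax7, -0.37 to 0.28 for Myog, -0.19 to 0.13 for Myf6, -0.24 to 0.02 for Six4, -0.16 to 0.08 for Prdm16, -0.96 to 0.44 for Ebf2 and -1.45 to 0.68 for Acta1. For the difference it gave -0.38 to 0.03 for Pax7, -0.13 to 0.22 for Myod1, -0.59 to 0.25 for Mef2c and -0.04 to 0.22 for Six4, and in cells -0.09 to 0.09 for Myf5, 0.00 to 0.23 for Myog and -0.16 to 0.23 for Myf6. No test against background comes with RMA, and values near or below the array medians may hold little of the gene's own signal. Such are those of Pax3 in brown fat and of Myf5 and Six4 in the embryo. In the adult they are also those of Pax7, Myf5, Six4 and Myf6, and in the cells those of Myf5, Myf6 and Mef2c.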
